A study of Homo sapiens with 3 samples.

Results

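The genes described here are the voltage-gated potassium, calcium and sodium channel genes and the other potassium channel genes, apart from a few (KCNJ11, KCNK16, CACNA1A, CACNA1C, CACNA1D and CACNB2) that were left out by name. They were chosen by symbol: names beginning KCN, CACNA, CACNB, CACNG or SCN with their subunit number, without antisense symbols ending in -AS or -AS1, and with at least 20 unique molecular identifiers (UMIs, 1 per captured RNA molecule) over the 3 libraries. Of 33538 genes in the files, 157 symbols matched, 139 remained after the exclusions, and 118 reached 20 UMIs. A further 14 had 1 to 19 UMIs and 7 had none. SCN1A, with 20 UMIs, was just inside the limit, and KCNK9, with 19, and KCNMA1-AS3, with 18, were just outside it. 114 of the 118 are protein coding and 4 are non-coding (KCNQ1OT1, CACNA1C-AS2, KCNAB1-AS2 and KCNIP4-IT1).

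The study differentiated H1 cells, a widely used line of human embryonic stem cells, into cultures meant to hold pancreatic beta cells and read each culture by 10x droplet single-cell RNA sequencing. It compared an unedited line (WT), a line labelled PAX6+/- (HET) and a line labelled PAX6-/- (KO). PAX6 is a transcription factor of the endocrine pancreas and the eye. With 1 library a genotype, the genotype and the library cannot be told apart, no difference between genotypes has a replicate check, and none is given a p-value. The sources used here do not give where PAX6 was cut, how many clones were used or the age of the cultures.

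Potassium channels let potassium leave the cell and hold or restore its resting voltage. Voltage-gated calcium and sodium channels open when the cell depolarizes and carry calcium or sodium inward. In beta cells, closure of the ATP-sensitive potassium channel depolarizes the membrane, calcium enters through voltage-gated channels and insulin granules are released, and voltage-gated and calcium-activated potassium channels then bring the voltage back. Two-pore potassium channels carry a background leak current, inward rectifiers set the resting voltage, and auxiliary subunits change the gating or the surface level of the pore subunits.

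Cells were divided by CHGA, the gene of chromogranin A, a protein of secretory granules in many endocrine cells. A CHGA-high cell had at least 5 CHGA UMIs and at least 500 CPM of CHGA (CPM, the UMIs of a gene scaled to a common total of UMIs), and every other kept cell was CHGA-low. The kept cells numbered 7969 (WT), 7791 (HET) and 8082 (KO), from 9667, 9628 and 9726 barcodes holding 136834433 to 145948590 UMIs a library. CHGA-high cells numbered 1513 (18.99%), 599 (7.69%) and 1036 (12.8%), and their sums held 20657612, 8432153 and 13166309 UMIs, against 98121382 to 114193738 for CHGA-low cells. The division is a cut along a range: 716, 406 and 538 cells lay between 250 and 1000 CPM of CHGA. 19 endocrine marker genes, CHGA among them, summed to 15801 to 18870 CPM in CHGA-high cells and 473 to 673 in CHGA-low cells, which is 2.95% to 3.57% of the CHGA-high level. Median mitochondrial shares of CHGA-high cells were 6.51% (WT), 8.53% (HET) and 9.11% (KO), and their part in the genotype values below was not tested. 99 of 28922 distinct barcodes occurred in more than 1 library. PAX6 itself stood at 318 CPM in WT, 239 in HET and 287 in KO CHGA-high cells, and 7.12, 2.18 and 2.41 in CHGA-low cells. PAX6 RNA was thus present in all 3 libraries, and without the lesion's position its level does not check the genotype labels.

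Levels below are CPM, scaled between the 6 sums (3 libraries, each with CHGA-high and CHGA-low cells) by the trimmed mean of M-values (TMM). Exceptions are the marker genes of cell types, GHRL among them, and the clusters of CHGA-low cells, whose levels use plain totals. All levels are compared for 1 gene across cells, not between genes. The promoters of a few genes on which the results turn are shown here, as the 250 bases before the RefSeq transcription start on GRCh38.p14, read 5′ to 3′ on the gene's strand. KCNH6 (chr17:63523108-63523357, plus strand) and KCNK3 (chr2:26692472-26692721, plus strand) are shown because both were higher in CHGA-high cells and hold the string TTCAGCACC, the left part of the RE1 element to which the repressor REST binds. KCNK17 (chr6:39314420-39314669, minus strand) and KCNK5 (chr6:39229476-39229725, minus strand) are shown because they are close neighbours on chromosome 6 that differed in opposite directions between the cell classes. Capitals mark TTCAGCACC on either strand in KCNH6 and KCNK3, and in KCNK17 they mark CAGATG, an E-box form used by basic helix-loop-helix factors such as NEUROD1. KCNK5 holds neither string.
KCNH6: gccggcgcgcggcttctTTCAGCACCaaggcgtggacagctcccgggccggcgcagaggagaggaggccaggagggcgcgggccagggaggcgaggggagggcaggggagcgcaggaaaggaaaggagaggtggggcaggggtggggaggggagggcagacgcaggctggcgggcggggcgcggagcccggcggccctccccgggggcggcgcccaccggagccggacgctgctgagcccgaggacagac
KCNK3: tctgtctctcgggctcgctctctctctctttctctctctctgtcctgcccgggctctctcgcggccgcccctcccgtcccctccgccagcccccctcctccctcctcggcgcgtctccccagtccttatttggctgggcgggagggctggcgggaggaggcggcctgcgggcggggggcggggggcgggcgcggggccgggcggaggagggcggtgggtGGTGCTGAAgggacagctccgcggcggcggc
KCNK17: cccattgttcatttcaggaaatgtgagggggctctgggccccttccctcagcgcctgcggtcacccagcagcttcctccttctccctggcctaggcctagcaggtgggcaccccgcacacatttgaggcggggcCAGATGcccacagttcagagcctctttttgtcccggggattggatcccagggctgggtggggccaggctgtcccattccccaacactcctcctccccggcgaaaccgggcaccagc
KCNK5: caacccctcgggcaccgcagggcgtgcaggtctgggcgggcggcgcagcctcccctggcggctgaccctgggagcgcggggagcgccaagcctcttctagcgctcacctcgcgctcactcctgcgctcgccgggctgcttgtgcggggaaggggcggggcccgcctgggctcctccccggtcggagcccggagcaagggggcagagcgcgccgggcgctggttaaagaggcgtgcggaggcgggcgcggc

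Of 118 genes, 83 had a window in the RefSeq promoter table, with 128 windows between them. A gene was counted where any of its windows held a string, while the background counts single windows. The shares of genes and of windows are thus unlike measures, and an excess cannot be read from them. TTCAGCACC, searched on both strands of the 250 bases, was in 3 of these 83 genes (KCNH6, KCNK3 and CACNG3), and in 101 of all 35116 windows (0.288%). Of the 30 genes with a window that were higher in CHGA-high cells, 2 held it, and of the 10 that were lower, 0 did. GGACAGCGC, the right part of RE1, was in 0 of the 83 genes and in 0.427% of all windows. In all, 14 strings were searched, and only some are given here. CAGATG was in 18 of the 83 genes, in 7 of the 30 that were higher, in 2 of the 10 that were lower, and in 12.2% of all windows. A match is a string in a sequence and no measure of binding, and a window without a match says nothing on the factor. REST RNA was 26.8, 40.5 and 19.96 CPM in WT, HET and KO CHGA-high cells, against 121, 129 and 128 in CHGA-low cells.

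The first comparison asked which channel genes differ between the endocrine and the other cells of the same culture. 98 of the 118 genes had at least 60 UMIs over the 6 sums and were tested together with all other genes (18776 in all), in edgeR's quasi-likelihood test with the library as a block and Benjamini-Hochberg adjustment. A gene was called at an adjusted p under 0.05 and at least a 2-fold difference. Of the 98, 43 were higher in CHGA-high cells (43.9%) and 10 were lower (10.2%). Over all genes tested the shares called were 14.0% higher and 10.8% lower. The share of channel genes called lower was close to that of all genes, and the share called higher was above it. The median log2 difference was 0.69 over the 98 genes and -0.01 over all genes. The values of the 3 CHGA-high sums lay above those of all 3 CHGA-low sums in 48 of the 118 genes, below in 19, and overlapped in 51. These 118 include genes under the 60 UMIs of the test. The same count was not made over all genes, so it does not set the channel genes apart from others. The 3 libraries were the replicates of this test and differ in genotype, so its p-values measure only the spread between these 3 libraries, genotype included. Among neuronal markers STMN2, ELAVL3, ELAVL4 and TUBB3 had more CPM in CHGA-high cells in all 3 libraries, STMN2 with 1045 to 1566 against 7.33 to 26.1, while NEFL had more in WT and KO but less in HET (213 against 310). Of 7 autonomic markers, which summed to 261 to 458 CPM against 5.65 to 7.76, HAND2 had less in CHGA-high cells in HET (4.03 against 4.27) and KO (0.228 against 0.578). The part of cells with these markers in the counts was not tested beyond the alternative that follows. With the cells of the autonomic class (defined below) left out, an alternative added after seeing the data, 44 genes were higher and 9 lower.

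**Figure D1:**
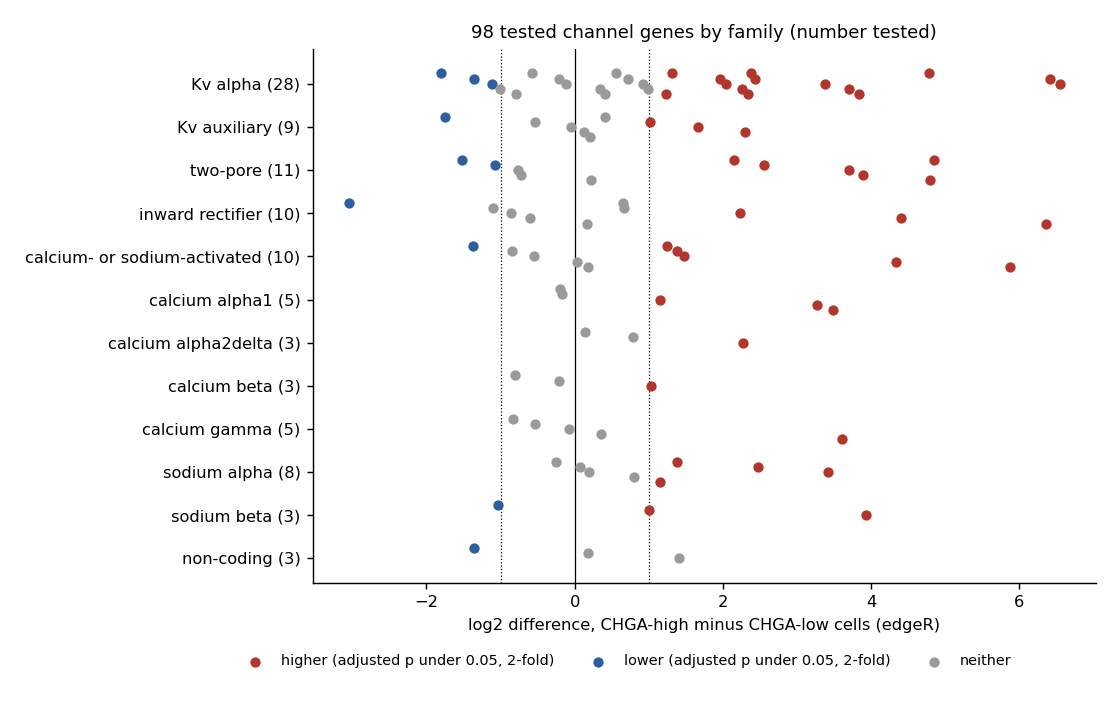
Log2 difference between CHGA-high and CHGA-low cells (edgeR, horizontal axis) for the 98 tested channel genes, 1 point a gene, in rows by family with the number tested. Red points are the 43 genes called higher, blue the 10 called lower, and grey the rest. Dotted lines mark a 2-fold difference. Red points occur in every row but the non-coding genes.

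The pore-forming voltage-gated potassium (Kv) subunits made up the largest family, with 14 higher and 3 lower of 28 tested. KCNH6, an ether-a-go-go-related channel of the hERG group (chr17:63523334-63548977, plus strand, GENCODE 29 on GRCh38), had 79.3 CPM in WT, 86.9 in HET and 102 in KO CHGA-high cells, against 1.29, 0.685 and 0.934 in CHGA-low cells. The groups did not overlap, and the log2 difference was 6.57 ± 0.55 (SD, n = 3 libraries, edgeR adjusted p = 7.58e-05). In each library its CHGA-low level was 0.789% to 1.63% of the CHGA-high level. KCNB2, a delayed rectifier of the Kv2 group, had 40.4 in WT, 34.9 in HET and 41.9 in KO CHGA-high cells, against 0.962, 0.333 and 0.220 in CHGA-low cells, a log2 difference of 6.56 ± 1.10 (SD, n = 3, edgeR adjusted p = 0.000279). The fitted difference of KCNB2 was 85.1-fold, and 137-fold without WT.

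The other ether-a-go-go genes did not all go one way. KCNH2, which codes for hERG itself, had 19.4 in WT, 14.3 in HET and 14.1 in KO CHGA-high cells, against 1.42, 1.23 and 1.01 in CHGA-low cells, with little spread in the log2 difference (3.70 ± 0.14, SD, n = 3, edgeR adjusted p = 8.19e-05). KCNH7 had 19.95 in WT, 28.8 in HET and 45.7 in KO CHGA-high cells, against 2.32, 2.26 and 1.72 in CHGA-low cells (log2 3.84 ± 0.83, SD, n = 3, edgeR adjusted p = 0.000575). KCNH8 (fitted log2 1.96) and KCNH1 (2.26) were higher as well. KCNH5, which belongs to the same group as KCNH1, was the reverse, with 9.71 in WT, 13.8 in HET and 8.26 in KO CHGA-high cells, against 35.6, 39.2 and 33.7 in CHGA-low cells. It was lower in CHGA-high cells in all 3 libraries, by 3.50-fold (log2 -1.80 ± 0.27, SD, n = 3, edgeR adjusted p = 0.000308), and by 1.83-fold with CHGA-high cells taken from 200 CPM and 3 UMIs. KCNQ1, a channel of heart and epithelia, had 1.69 in WT, 0.699 in HET and 0.861 in KO CHGA-high cells, against 2.74, 1.54 and 1.37 in CHGA-low cells. Its fitted log2 difference of -0.79 (edgeR adjusted p = 0.0368) was under 2-fold and was not called. The A-type subunits split likewise: KCND3 was higher (fitted log2 3.37, and 2.74 without WT) and KCND2 was lower (-1.11, edgeR adjusted p = 0.0159). KCND2 had 4.44 in WT, 3.50 in HET and 3.16 in KO CHGA-high cells, against 6.03, 9.83 and 9.19 in CHGA-low cells, and without the HET library its adjusted p was 0.0801.

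Auxiliary Kv subunits had 3 higher and 1 lower of 9 tested, at low levels. KCNIP1, a calcium-binding partner of A-type channels, had 1.55 in WT, 1.28 in HET and 1.79 in KO CHGA-high cells, against 0.383, 0.167 and 0.397 in CHGA-low cells. KCNIP1 was higher by 4.92-fold (edgeR adjusted p = 0.00238). However, KCNMB1 lies within the span of KCNIP1 on the opposite strand and was also called higher. The strand setting of the counting is not given in the sources used here. Reads of one can be counted for the other if strand was not used. KCNIP4, of the same subfamily, had 0.725 in WT, 1.05 in HET and 0.574 in KO CHGA-high cells, against 3.75, 2.80 and 1.33 in CHGA-low cells, 3.37-fold lower in CHGA-high cells (edgeR adjusted p = 0.00642). KCNE4, a single-span subunit that inhibits KCNQ1 channels, was called higher at a fitted log2 of 1.66 (edgeR adjusted p = 0.0255), yet its levels overlapped. The call was lost without the HET library (log2 1.73, adjusted p = 0.0852) and without the WT library (1.01, adjusted p = 0.115).

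Two-pore channel genes had 6 higher and 2 lower of 11 tested, with a median log2 difference of 2.15. KCNK17 (TALK-2), an alkaline-activated leak channel of the pancreas (chr6:39299001-39314553, minus strand), had 364 CPM in WT, 239 in HET and 204 in KO CHGA-high cells, against 19.7, 17.2 and 23.6 in CHGA-low cells. The CHGA-high values were all far above the CHGA-low ones, by a log2 difference of 3.70 ± 0.55 (SD, n = 3, edgeR adjusted p = 0.000236). After each cell was thinned to 3000 UMIs, 51.0%, 42.4% and 38.4% of WT, HET and KO CHGA-high cells held a KCNK17 UMI, against 4.63%, 4.38% and 6.63% of CHGA-low cells (76.3%, 71.5% and 65.0% against 16.8%, 17.0% and 24.0% before thinning). Thinning left out 45, 7 and 45 shallower CHGA-high and 167, 110 and 134 CHGA-low cells. KCNK5 (TASK-2), an acid-sensitive leak channel of epithelia (chr6:39188973-39229450) that lies 69.6 kb from KCNK17 on the same strand, ran the other way. It had 13.8 in WT, 11.3 in HET and 11.3 in KO CHGA-high cells, against 36.1, 30.2 and 38.6 in CHGA-low cells, and was 2.87-fold lower in CHGA-high cells (log2 -1.52 ± 0.21, SD, n = 3, edgeR adjusted p = 0.000355), and 1.60-fold at the lower CHGA limits. KCNK1 (TWIK-1), a weak leak channel, had 18.1 in WT, 17.0 in HET and 11.9 in KO CHGA-high cells, against 35.1, 32.1 and 31.0 in CHGA-low cells, again lower in all 3 libraries (log2 -1.08 ± 0.26, SD, n = 3, edgeR adjusted p = 0.00119). KCNK3 (TASK-1), whose promoter is shown above, had 16.7 in WT, 10.3 in HET and 11.1 in KO CHGA-high cells, against 1.13, 1.02 and 0.502 in CHGA-low cells, and was 14.8-fold higher (edgeR adjusted p = 0.000274). KCNK2 (TREK-1, opened by stretch), KCNK10 (TREK-2), KCNK13 and KCNK15 were the other members called higher, at fitted log2 differences of 4.80, 2.55, 4.84 and 2.15. KCNK2 was 27.8-fold higher, 6.96-fold without the autonomic class, 17.6-fold at CHGA limits of 1000 CPM and 10 UMIs, and 47.9-fold with cells of 100 to 500 CPM of CHGA left out.

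Inward rectifiers had 3 higher and 1 lower of 10 tested. KCNJ6 (GIRK2), a channel opened by G protein beta-gamma subunits (chr21:37607376-38121345, minus strand), had 103 CPM in WT, 112 in HET and 153 in KO CHGA-high cells, against 1.60, 1.17 and 1.71 in CHGA-low cells. The groups did not overlap (log2 6.36 ± 0.31, SD, n = 3, edgeR adjusted p = 5.06e-05), and its CHGA-low level was 1.04% to 1.55% of the CHGA-high one. Its partner subunit KCNJ3 (GIRK1) was found in both classes, with 37.9 in WT, 40.8 in HET and 52.6 in KO CHGA-high cells, against 26.8, 30.2 and 25.04 in CHGA-low cells. The KCNJ3 groups did not overlap, but the fitted log2 difference of 0.67 (edgeR adjusted p = 0.0113) was under 2-fold. KCNJ2, the classical strong inward rectifier, had 14.9 in WT, 11.4 in HET and 13.7 in KO CHGA-high cells, against 1.98, 5.99 and 2.02 in CHGA-low cells (fitted log2 2.23, edgeR adjusted p = 0.00766). The KCNJ2 difference was 4.68-fold, and 7.17-fold without HET. KCNJ13, an inward rectifier of transporting epithelia, showed the reverse, with 0.870 in WT, 0.699 in HET and 1.36 in KO CHGA-high cells, against 7.11, 6.49 and 10.8 in CHGA-low cells. It was 8.28-fold lower in CHGA-high cells (log2 -3.08 ± 0.12, SD, n = 3, edgeR adjusted p = 0.000194). At a CHGA limit of 200 CPM and 3 UMIs the difference was 3.02-fold, at 1000 CPM and 10 UMIs 15.1-fold, and with doublets kept 4.71-fold. The liver gene FGB was also lower in CHGA-high cells in WT, HET and KO, with 991, 868 and 588 CPM against 5051, 3687 and 4339. The other liver markers did not follow it in all libraries. ALB was higher in CHGA-high cells in WT and HET (66.9 and 91.4 against 24.3 and 19.7). APOA1 was lower in WT (594 against 1092) but slightly higher in HET (620 against 571) and KO (575 against 568). What part of the KCNJ13 UMIs in CHGA-high cells is free RNA was not tested.

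**Figure D2:**
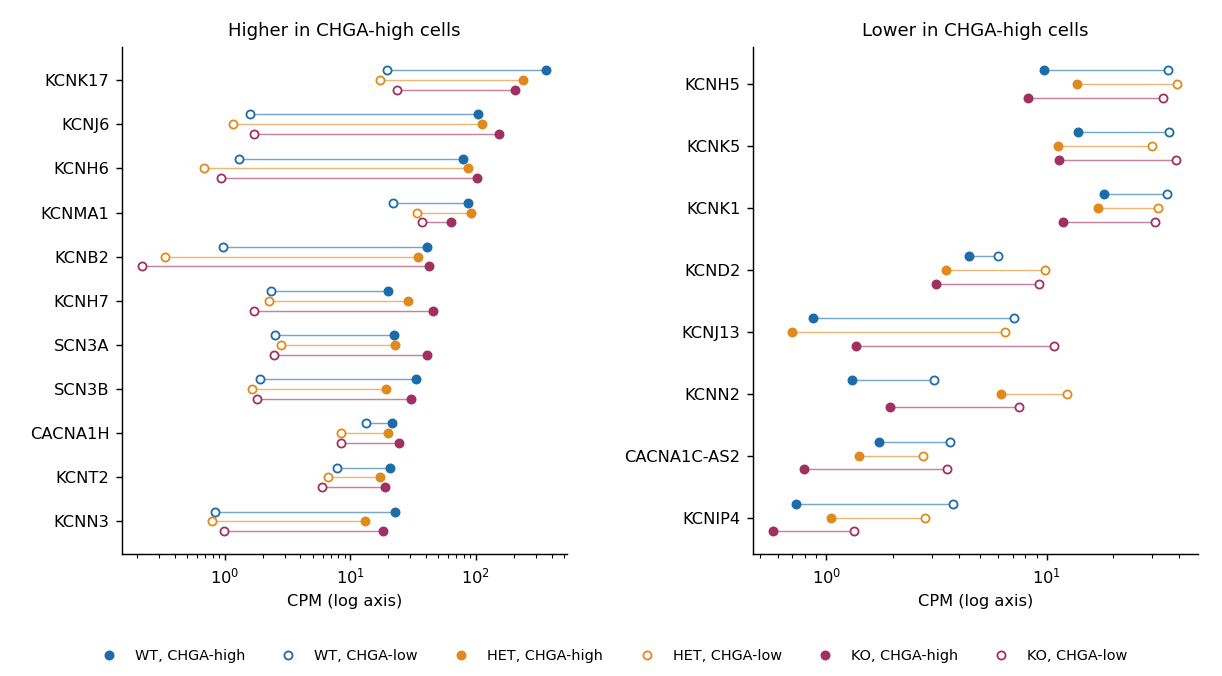
CPM (log axis) of 11 of the 12 channel genes called higher, and the 8 called lower, in CHGA-high cells that have the highest level in that class. Filled points are CHGA-high and open points CHGA-low cells, with 1 line for each library (WT blue, HET orange, KO purple). The 3 filled points stand apart from the 3 open ones in each gene shown except KCNN2.

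Calcium- and sodium-activated potassium channels had 5 higher and 1 lower of 10 tested. KCNMA1, the pore of the large-conductance BK channel, had 85.9 in WT, 91.0 in HET and 63.0 in KO CHGA-high cells, against 21.9, 34.2 and 37.5 in CHGA-low cells. Both classes held it, and the excess in CHGA-high cells was smallest in KO (log2 1.38 ± 0.61, SD, n = 3, edgeR adjusted p = 0.00488). KCNMB2, a BK beta subunit that gives inactivation, was far more uneven, with 4.93 in WT, 4.31 in HET and 8.11 in KO CHGA-high cells, against 0.0875, 0.0926 and 0.106 in CHGA-low cells (fitted log2 5.87, edgeR adjusted p = 0.000115). KCNN3 (SK3), a small-conductance channel, had 22.5 in WT, 13.2 in HET and 18.0 in KO CHGA-high cells, against 0.842, 0.796 and 0.978 in CHGA-low cells (log2 4.33 ± 0.36, SD, n = 3, edgeR adjusted p = 9.40e-05). KCNT2, a sodium-activated channel, had 20.5 in WT, 17.3 in HET and 19.02 in KO CHGA-high cells, against 7.85, 6.66 and 5.96 in CHGA-low cells (log2 1.48 ± 0.17, SD, n = 3, edgeR adjusted p = 0.000451). KCNN2 (SK2) was lower in CHGA-high cells within each library, with 1.30 in WT, 6.18 in HET and 1.94 in KO CHGA-high cells, against 3.09, 12.3 and 7.53 in CHGA-low cells, though the 2 classes overlapped across libraries. Its call (fitted log2 -1.38, edgeR adjusted p = 0.00468) was lost without the library block (adjusted p = 0.155). KCNN4, the intermediate-conductance channel of epithelia and blood cells, had 0.580 in WT, 0.933 in HET and 0.503 in KO CHGA-high cells, against 0.448, 1.35 and 0.414 in CHGA-low cells. The fitted difference for KCNN4 was 0.03 (edgeR adjusted p = 0.998) and its sign changed under 7 of 17 other settings.

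Among voltage-gated calcium channel genes, 3 of 5 pore subunits tested were higher and 0 lower. CACNA1B, the N-type pore, had 6.14 in WT, 4.31 in HET and 7.61 in KO CHGA-high cells, against 0.448, 0.629 and 0.811 in CHGA-low cells (log2 3.26 ± 0.50, SD, n = 3, edgeR adjusted p = 0.000455). CACNA1E, the R-type pore, was lower in level, at 1.69 in WT, 0.699 in HET and 0.359 in KO CHGA-high cells, against 0.175, 0.0740 and 0.00881 in CHGA-low cells (edgeR adjusted p = 0.00222). CACNA1E was 11.2-fold higher, and 7.41-fold at the lower CHGA limits. These folds rest on few UMIs: before thinning, 2.1% of WT and 0.83% of HET CHGA-high cells held one. CACNA1H, a T-type pore opened by small depolarizations, was found in both classes, with 21.4 in WT, 19.8 in HET and 24.3 in KO CHGA-high cells, against 13.3, 8.45 and 8.40 in CHGA-low cells, and was 2.21-fold higher in CHGA-high cells (edgeR adjusted p = 0.00390). The other T-type genes CACNA1G and CACNA1I were not called. CACNA2D1, an alpha2delta subunit that carries calcium channels to the surface, had 225 in WT, 206 in HET and 223 in KO CHGA-high cells, against 127, 105 and 153 in CHGA-low cells. All CHGA-high values were above all CHGA-low values, and the fitted log2 difference of 0.78 (edgeR adjusted p = 0.00208) was under 2-fold. CACNA2D2 was called higher (2.26), as were the beta subunit CACNB1 (1.04) and the gamma-family gene CACNG7 (3.60). CACNB3, a beta subunit reported to restrain calcium signals in beta cells, had 14.0 in WT, 10.1 in HET and 13.9 in KO CHGA-high cells, against 15.7, 14.2 and 14.2 in CHGA-low cells and was not called (fitted log2 -0.22, edgeR adjusted p = 0.189).

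Voltage-gated sodium channels had 4 pore genes higher and 0 lower of 8 tested, and 2 beta subunits higher and 1 lower of 3. SCN3A and SCN9A, the sodium channels most often described in islet cells, were both higher. SCN3A had 22.2 in WT, 22.5 in HET and 40.8 in KO CHGA-high cells, against 2.53, 2.79 and 2.44 in CHGA-low cells (log2 3.41 ± 0.57, SD, n = 3, edgeR adjusted p = 0.000332). SCN9A had 14.8 in WT, 10.1 in HET and 15.7 in KO CHGA-high cells, against 3.01, 6.09 and 7.43 in CHGA-low cells (log2 1.37 ± 0.82, SD, n = 3, edgeR adjusted p = 0.0147). SCN3A, SCN2A, SCN1A, SCN9A and SCN7A lie in 1 cluster on chromosome 2. SCN2A, which overlaps SCN3A on the opposite strand in the annotation, was not called (0.07), and the counting's use of strand is not given. SCN7A was called higher at a fitted log2 of 1.14 (edgeR adjusted p = 0.0220), but its levels overlapped and the call was lost without the library block (adjusted p = 0.106), without HET (0.0994) and without WT (0.104). SCN8A had 11.9 in WT, 11.8 in HET and 15.2 in KO CHGA-high cells, against 6.65, 7.13 and 8.53 in CHGA-low cells, a difference of 0.80 ± 0.06 on the log2 scale (SD, n = 3, edgeR adjusted p = 0.00249) that held in all 3 libraries but was under 2-fold. SCN3B, a beta subunit that modifies gating, had 33.3 in WT, 19.4 in HET and 30.2 in KO CHGA-high cells, against 1.91, 1.66 and 1.80 in CHGA-low cells (log2 3.91 ± 0.32, SD, n = 3, edgeR adjusted p = 8.39e-05).

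Of the non-coding genes, KCNQ1OT1, the imprinted antisense RNA that runs within KCNQ1, was counted in both classes, with 281 CPM in WT, 367 in HET and 278 in KO CHGA-high cells, against 279, 291 and 243 in CHGA-low cells. The levels overlapped and the gene was not called (fitted log2 0.18, edgeR adjusted p = 0.148). Because KCNQ1OT1 and KCNQ1 overlap on opposite strands, reads of one can be counted for the other if strand was not used. CACNA1C-AS2, antisense to the L-type gene CACNA1C, had 1.74 in WT, 1.40 in HET and 0.790 in KO CHGA-high cells, against 3.63, 2.76 and 3.52 in CHGA-low cells and was 2.57-fold lower in CHGA-high cells (edgeR adjusted p = 0.0115).

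A list of 45 other genes covered ion transport, subunits and partners of channels, and REST, with the channel genes left out by name among them. It gave 23 higher and 6 lower of 43 tested, with a median log2 difference of 1.32. Over all 18776 genes tested, 14.0% were called higher and 10.8% lower, and the list was not tested against these shares. ABCC8, the regulatory subunit of the ATP-sensitive potassium channel, was higher at a log2 difference of 6.19, KCNJ11, its pore, at 4.48, and KCNK16 at 6.49. The 6 that were lower were REST, ITPR3, CFTR, TRPV6, ANO1 and PIEZO2, from -2.49 for PIEZO2 to -1.28 for ANO1.

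CHGA-high cells are a mixture, so the channel genes were also summed by class. A cell was classed by its highest of INS, GCG, SST and GHRL (at least 5 UMIs and 2000 CPM), otherwise as TPH1 (serotonin synthesis), otherwise as autonomic where markers of autonomic neurons, among them PHOX2A, TLX2 and CHRNA3, together had at least 3 UMIs. The classes are rules on single genes and not types. Their sizes differed between libraries: the GCG class had 414, 114 and 28 cells in WT, HET and KO, the GHRL class 23, 48 and 150, the TPH1 class 76, 38 and 196, the INS class 332, 139 and 153, and the autonomic class 116, 50 and 133. The SST class had 72, 10 and 9 cells, and 480, 200 and 367 cells fell in none. Levels by class are descriptions and carry no test.

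KCNK10, the TREK-2 leak channel (chr14:88180103-88326907, minus strand), was highest in the GHRL class in HET and KO. There it had 27 UMIs in HET (38.1 CPM) and 85 in KO (41.8), of 38 and 132 in all CHGA-high cells. In WT, with 23 cells in that class, it had 1 UMI of 16 there (3.57 CPM). KCNK2, its stretch-activated relative, was instead highest in the autonomic class, with 26.3, 15.5 and 36.8 CPM in WT, HET and KO, and at most 6.06 in the TPH1 class. KCNJ3 was highest in the TPH1 class in each library, with 157, 160 and 130 CPM, against 33.0, 50.8 and 65.9 in the INS class. KCNS3, a silent Kv subunit that works only with Kv2 partners, followed the same order, with 51.0, 34.2 and 46.2 in the TPH1 class and 2.44, 7.82 and 24.6 in the INS class.

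KCNJ8, a pore of ATP-sensitive channels outside the beta cell, differed from KCNJ3 in the TPH1 class. It had 67.9, 49.4 and 60.3 CPM in the INS class and 60.7, 52.2 and 58.0 in the GHRL class, against 3.84, 0 and 6.44 in the TPH1 class. SCN7A was highest in the INS class, with 46.0, 35.7 and 10.2 CPM, and was 0.962, 1.80 and 2.27 in the TPH1 class. KCNH7 was highest in the autonomic class, with 70.9, 102 and 99.3, and SCN3B was highest there in WT and KO, with 90.9 and 77.3. KCNK17 was present in every class, with 532, 330 and 312 in the INS class and 251, 91.6 and 122 in the autonomic class.

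The next comparison asked which channel genes differ with PAX6 genotype in CHGA-high cells. With 1 library per genotype, a gene was counted at 2-fold where it reached 5 CPM in either library, and intervals are exact 95% counting intervals that hold no spread between cultures. Of 118 genes, 48 reached that level for KO against WT. 4 were at least 2-fold higher in KO (8.33%, against 2.42% of all 11931 genes at that level) and 6 were at least 2-fold lower (12.5%, against 4.57%). The median log2 ratio was -0.06 over these 48 and 0.01 over all genes. For HET against WT, 45 reached the level, 1 was higher (2.22%, against 1.35% of 11884 genes) and 3 were lower (6.67%, against 2.14%). Both comparisons use the same WT library. Of the called genes over all genes, 65.3% were lower in KO, and 54.8% with totals alone as the scale.

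The genes higher in KO were KCNK10, KCNK2, KCNH7 and KCNH8. KCNK10 had 0.773 CPM in WT, 4.43 in HET and 9.48 in KO CHGA-high cells, from 16, 38 and 132 UMIs. The KO to WT ratio was 12.3 (95% counting interval 7.27 to 22.1), and the HET to WT ratio was 5.73 (95% counting interval 3.12 to 11.01), with HET under the level of 5 CPM. GHRL, the gene of the class that holds most KCNK10 UMIs in HET and KO, stood at 651, 2140 and 4030 CPM of plain totals in the same cells. Equal weight was then given to the 6 classes of at least 20 cells in both libraries, which left out SST and took in the cells in none. The KO difference of KCNK10 was then 2.82 on the log2 scale, against 3.62. KCNK2 had 2.71, 1.75 and 6.46 (KO to WT 2.39 (95% counting interval 1.69 to 3.40)), and KCNH7 had 19.95, 28.8 and 45.7 (KO to WT 2.29 (95% counting interval 2.02 to 2.60)). KCNH8, an Elk-type Kv channel, had 9.32, 11.1 and 19.1 (KO to WT 2.05 (95% counting interval 1.70 to 2.48)). Under equal class weights the log2 values of KCNK2, KCNH7 and KCNH8 were 0.27, 0.81 and 0.56, all under 2-fold. Within the autonomic class KCNK2 was 1.40 times the WT level in KO (interval 0.943 to 2.10), and KCNH7 was 1.40 times (1.11 to 1.78).

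The genes lower in KO were KCNE4, SCN7A, CACNA2D3, KCND3, KCNG1 and KCNK6, and all 6 were also past 2-fold with equal class weights. SCN7A, a sodium channel relative gated by sodium level (chr2:166403573-166494326, minus strand), had 23.0 CPM in WT, 20.3 in HET and 4.67 in KO, from 476, 174 and 65 UMIs. The KO to WT ratio was 0.203 (95% counting interval 0.154 to 0.263), and HET to WT 0.882 (95% counting interval 0.737 to 1.05). KO stood apart from the other libraries. Within the INS class alone the KO to WT ratio of SCN7A was 0.222 (0.136 to 0.345). KCNE4 was lower in both edited libraries, with 5.80, 2.56 and 0.861 (KO to WT 0.149 (95% counting interval 0.0747 to 0.269), HET to WT 0.442 (95% counting interval 0.267 to 0.701)), from 120, 22 and 12 UMIs. Its WT level was under 5 CPM with doublets kept, so it was then not counted.

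CACNA2D3, another alpha2delta subunit, was low in both edited libraries, with 13.1, 4.66 and 4.16 (KO to WT 0.318 (95% counting interval 0.235 to 0.424), HET to WT 0.356 (95% counting interval 0.249 to 0.498)). In the INS class it had 79 UMIs in WT (17.5 CPM), 12 in HET (5.94) and 3 in KO (1.39). KCNK6 (TWIK-2) was likewise low in both, with 10.2, 3.85 and 3.95 (KO to WT 0.386 (95% counting interval 0.281 to 0.521), HET to WT 0.376 (95% counting interval 0.252 to 0.544)). KCND3, an A-type channel, had 16.3 in WT, 9.09 in HET and 5.53 in KO (KO to WT 0.339 (95% counting interval 0.261 to 0.435)). Its KO to WT ratio was 0.284 (0.185 to 0.431) in the TPH1 class and 0.198 (0.0842 to 0.419) in the autonomic class. KCNG1, a silent Kv subunit, had 9.52, 8.98 and 3.30 (KO to WT 0.347 (95% counting interval 0.246 to 0.480)). KCNN2 was the gene higher in HET, with 1.30, 6.18 and 1.94 (HET to WT 4.74 (95% counting interval 2.93 to 7.83)).

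**Figure D3:**
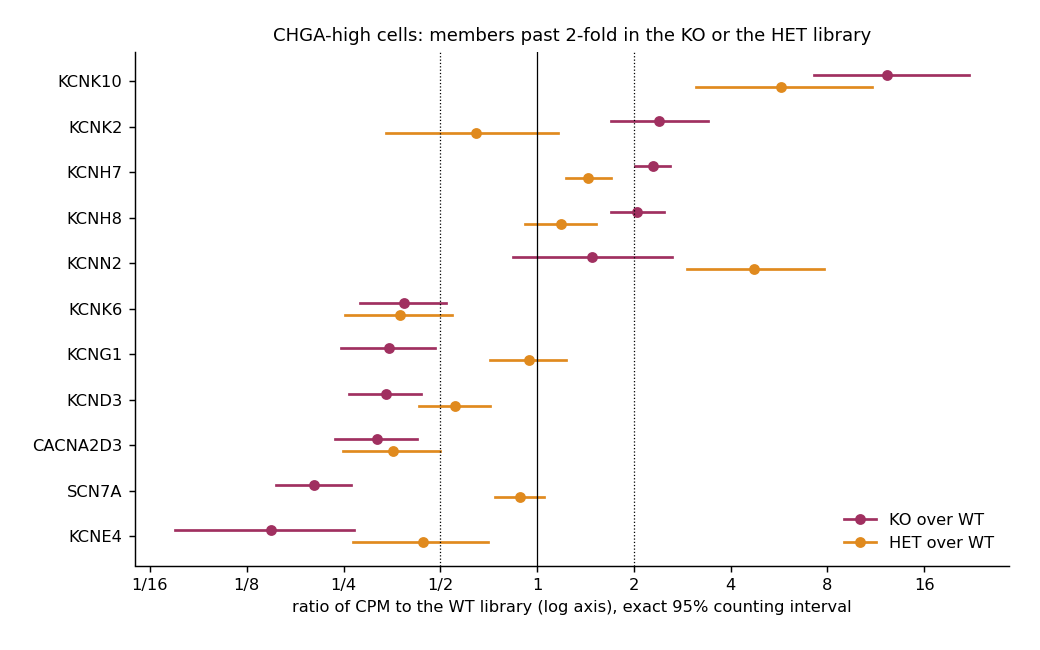
Ratio of CPM to the WT library in CHGA-high cells (log axis) for the 11 channel genes past 2-fold in KO or HET. Points are ratios, lines exact 95% counting intervals, purple KO and orange HET, and dotted lines mark 2-fold. KCNK10 is to the right in both libraries, and CACNA2D3, KCNK6 and KCNE4 are to the left in both.

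KCNJ6, KCNH6, KCNB2 and KCNK17, 4 of the genes of highest level among those called higher in CHGA-high cells, were within 2-fold of WT in both edited libraries, unlike KCNH7 of the same list. KCNJ6 had KO to WT 1.48 (95% counting interval 1.40 to 1.57), KCNH6 1.29 (95% counting interval 1.20 to 1.39) and KCNB2 1.04 (95% counting interval 0.931 to 1.15). KCNK17 had KO to WT 0.559 (95% counting interval 0.535 to 0.584) and HET to WT 0.655 (95% counting interval 0.624 to 0.688). The KO ratio of KCNK17 was lower than 1 within the INS class (0.587, interval 0.538 to 0.640), the GCG class (0.507, 0.406 to 0.626) and the autonomic class (0.486, 0.413 to 0.572), and 0.909 (0.782 to 1.06) in the TPH1 class. KCNK16 and KCNJ11, outside the rule, were past 2-fold lower in KO, at -1.42 and -1.09 on the log2 scale.

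In CHGA-low cells 29 of the 118 genes reached 5 CPM for KO against WT, with 2 higher (6.90%, against 1.09% of 11249 genes) and 2 lower (6.90%, against 2.68%). For HET against WT 29 did, with 4 higher (13.8%, against 1.74% of 11327 genes) and 1 lower (3.45%, against 1.77%). Over all genes called, the share lower was 71.0% in KO and 50.5% in HET, and 58.6% and 33.3% with totals alone as the scale. KCNN2 had 3.09, 12.3 and 7.53 CPM in WT, HET and KO (HET to WT 3.98 (95% counting interval 3.50 to 4.54), KO to WT 2.43 (95% counting interval 2.12 to 2.79)). SCN9A had 3.01, 6.09 and 7.43 (HET to WT 2.03 (95% counting interval 1.76 to 2.34), KO to WT 2.47 (95% counting interval 2.15 to 2.84)). CACNA1G, a T-type calcium channel, had 6.54, 3.12 and 2.15 (HET to WT 0.477 (95% counting interval 0.416 to 0.546), KO to WT 0.329 (95% counting interval 0.282 to 0.382)), and with totals alone as the scale its HET difference was -0.96, just under 2-fold. Thus WT was the lowest library for KCNN2 and SCN9A and the highest for CACNA1G. The clusters of CHGA-low cells described below differed in size between libraries. Cluster 9, highest in SCN9A at 13.2 CPM, had 247 WT, 137 HET and 853 KO cells. Cluster 5, with 9.52 CPM of SCN9A, had 995, 830 and 226. The part of this mix in the values here was not tested. SCN7A was lower in KO here too, with 9.32, 5.95 and 4.04 (KO to WT 0.433 (95% counting interval 0.386 to 0.486)).

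KCNJ2 and KCNG1 were past 2-fold in HET and under it in KO, a difference that was not tested. KCNJ2 had 1.98, 5.99 and 2.02 (HET to WT 3.03 (95% counting interval 2.56 to 3.59)) and KCNG1 had 4.82, 10.9 and 7.79 (HET to WT 2.25 (95% counting interval 2.02 to 2.52)). The CHGA-low cells fell into 15 clusters when grouped without the channel genes, and 2 of them, 11 and 15, held no WT cell. Cluster 11, led by CXCL14, TFAP2B, GABRP and TFAP2A, held 524 HET and 111 KO cells. It had 88.2 CPM of KCNG1, 47.9 of KCNN2, 36.2 of KCNJ2 and 166 of KCNMA1, each the highest of the 15 clusters. With clusters 11 and 15 left out, an alternative added after seeing the data, the HET to WT log2 value was 0.02 for KCNG1 and 0.69 for KCNJ2, both under 2-fold. KCNN2 was still past 2-fold at 1.58. SCN9A was at 1.13, but clusters 11 and 15 had only 0.774 and 0 CPM of SCN9A. Leaving them out raises its HET level, so this alternative is no check of its ratio.

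Other channel genes were highest in other clusters of CHGA-low cells, several with a second cluster close behind. KCNK5 was highest in cluster 1 (58.7 CPM, then 49.3 in cluster 7), whose leading genes include FABP1, APOC3 and CUBN of absorptive epithelium. KCNJ13 had 13.1 in cluster 1 and 13.03 in cluster 2. KCNH5 and KCNJ3 were highest in cluster 3 (65.6 and 67.5), led by SHOX2 and PCDH9, with 55.1 of KCNH5 in cluster 5 and 33.3 of KCNJ3 in cluster 7. KCND2 had 19.2 in cluster 5, led by NOS1 and VSIG1, and 15.9 in cluster 3. KCNJ8 was highest in cluster 9 (78.6), led by OSR2 and KRT7, at 62.6 in WT, 73.7 in HET and 83.7 in KO. The clusters highest in KCNJ3 and in KCNJ8 thus differed, though both genes were counted in others, such as cluster 5 (27.2 and 23.2). Cluster 14, 59 cells with NEUROG3, PAX4 and INSM1 among the leading genes and so with genes of endocrine progenitors, had 267 CPM of KCNK17, 334 of CACNA2D1 and 839 of KCNQ1OT1. Of its cells 48 were WT, 8 HET and 3 KO. Cluster 13, 258 cells of 2296.5 median UMIs with endocrine genes leading, had 525 CPM of CHGA as a sum, above the limit of 500, while its single cells missed a limit on UMIs or CPM. It had 36.6 CPM of KCNB2, 25.9 of KCNH6 and 40.2 of KCNJ6, which count in the CHGA-low levels above. With this cluster left out, an alternative added after seeing the data, all 43 genes stayed higher and all 10 lower in CHGA-high cells, and the fitted log2 values were 6.83 for KCNB2, 6.69 for KCNH6 and 6.52 for KCNJ6. Cluster 13 is not drawn.

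**Figure D4:**
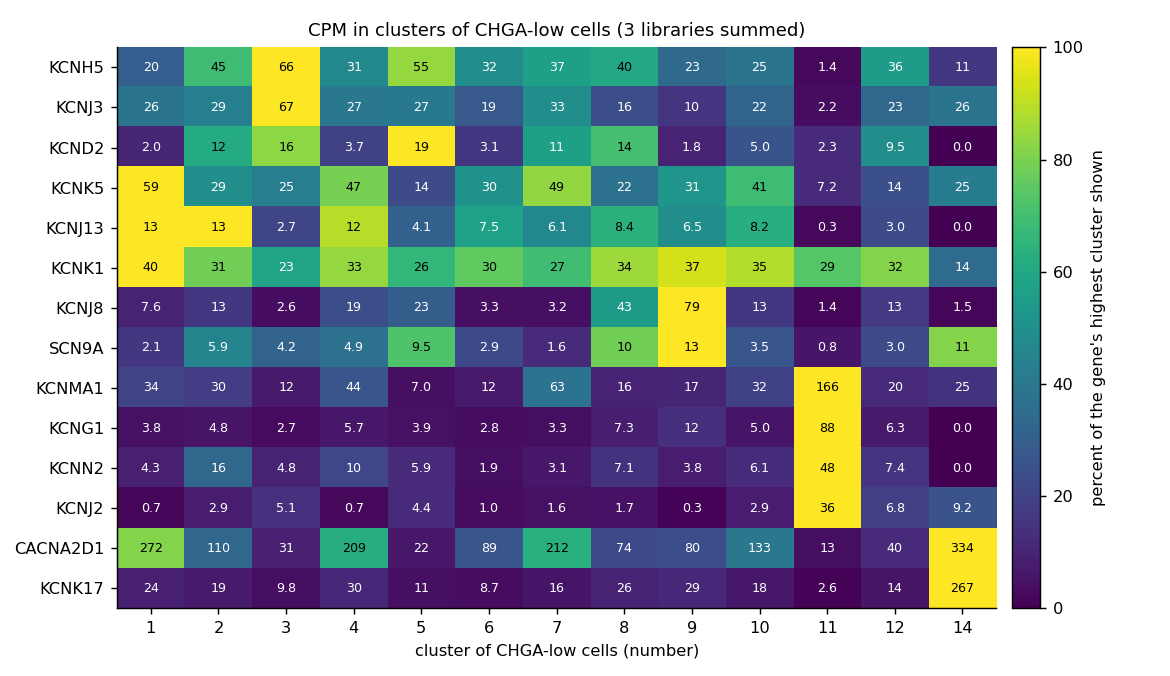
CPM of 14 channel genes (rows) in 13 of the 15 clusters of CHGA-low cells (columns), with the 3 libraries summed and the value printed in each field. Colour is the percent of the gene's highest cluster shown, so it compares clusters for 1 gene and not genes. KCNMA1, KCNG1, KCNN2 and KCNJ2 peak in cluster 11, and KCNK17 and CACNA2D1 in cluster 14.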

How the data were processed

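The authors deposited a matrix of raw UMI counts for each library, which Cell Ranger 6.1.2 wrote, per the file headers. Cell Ranger, Seurat and GRCh38 are named in the submitters' processing notes. The sources used here do not give the counting's use of strand and introns, or which transcript end the kit read. The channel genes and all gene lists were chosen with earlier results of these data known.

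Cells were kept at 1000 or more UMIs, 500 or more genes and at most 20% mitochondrial UMIs. Scrublet's own threshold called 0 doublets in every library, so the cells with the top 8% of scores of each library were removed. Counts were summed per library and class and tested in edgeR 4.0.16 (quasi-likelihood, TMM, library as block, Benjamini-Hochberg over all genes with 60 or more UMIs). The block follows from each library holding both classes, and the labels give no replicate numbers. The script was tested on simulated counts. CHGA-low cells were clustered with scanpy 1.11.5 (2000 variable genes without the channel genes, 30 components, Leiden resolution 0.8). A count of 0 was set to 3 counts in a ratio, and intervals cover counting error only. Sequences come from the RefSeq promoter table (GRCh38.p14) and coordinates from GENCODE 29.

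Named genes were the 12 higher and 8 lower genes of highest level among those called between classes, those past 2-fold between genotypes (up to 8 a direction in CHGA-high and 5 in CHGA-low cells), a fixed list of well-known channels, and those beside the UMI limit. Other genes named in passing were chosen after their values were seen. A few of the named genes are not reported here. Alternatives covered doublets, cell filters, the CHGA limit, scaling, DESeq2 1.42.0, count filters and leaving out each library.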

Additional observations from a re-analysis of the deposited data

How the results depend on the processing

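For the comparison of CHGA-high with CHGA-low cells, the count of channel genes higher was 43 and ranged from 32 to 39 when each library was left out in turn, with 7 to 12 lower (32 higher and 12 lower without WT). Without the replicate block edgeR gave 40 higher and 8 lower, and DESeq2 gave 40 and 8. The CHGA limits were moved together, to 200 CPM and 3 UMIs (the lower limits) or 1000 CPM and 10 UMIs (the upper limits). The lower limits left 3 genes lower in place of 10. Leaving out cluster 13 changed none of the 10 counts. The log2 difference changed sign in 4 genes that were not called: KCNN4 (-0.011 at the upper limits, -0.18 at the lower, -0.057 with cells between the classes left out, -0.061 without the count filter, -0.19 without the block), CACNA1G (0.011 at the lower limits) and KCNG1 (0.075 under the strict cell filter). When each library was left out it ranged from -0.18 to 0.33 in KCNN4, -0.43 to 0.17 in CACNA1G, -0.74 to 0.40 in KCNG1 and -0.53 to 0.81 in CACNA2D3. For KO against WT in CHGA-high cells the 4 genes higher became 1 at the lower CHGA limits, 7 at a level of 2 CPM, 1 at 20 CPM and 1 with classes weighing the same, and the 6 lower became 4, 9, 1 and 6 in the same order. For HET against WT the 1 higher became 3 under the strict filter, 4 at 2 CPM, 0 at 20 and 2 with equal class weights, and the 3 lower became 1 at the lower CHGA limits, 6 at 2 CPM and 0 at 20. In CHGA-low cells the 2 higher and 2 lower in KO became 0 and 0 at 20 CPM; the 4 higher and 1 lower in HET became 0 and 0 at 20 CPM, the 1 lower became 0 with totals alone as the scale, and the 4 higher became 2 without clusters 11 and 15. The cause of these shifts was not tested, except that a level of 20 CPM leaves fewer genes. At a level of 5 CPM in sums of 20657612 (WT) and 13166309 (KO) UMIs, 70 of the 118 genes were too low for the KO comparison in CHGA-high cells.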
